A study of Mus musculus with 32 samples.

Results

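The 10 Ifi200 family genes of mouse chromosome 1 described here are Ifi202b, Ifi203, Ifi204, Ifi205, Ifi207, Ifi208, Ifi209, Ifi211, Ifi213 and Mndal, out of 25067 named genes in the series. They were chosen because many of them differed between the genotypes in resting cells, so their levels at 0 h are given as a description and were not tested. The genes form a cluster of 465 kb, at chr1:173566280-174031755 of the mouse genome build GRCm38, with 8 of them on the minus strand and Ifi209 and Ifi208 on the plus strand. From the low to the high coordinate their order is Ifi213, Ifi209, Ifi208, Ifi207, Ifi204, Mndal, Ifi211, Ifi203, Ifi202b and Ifi205. All 10 passed the filter on low values, and Ifi202b passed through the 4 groups of the knockout alone, since its level in the wild type was at or near 0. Its genotype difference is for that reason given without a test. Ifi208 likewise passed through the 5 and 18 h groups alone.

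Genes of this family are transcribed in response to interferons, and most of their proteins join a pyrin domain, which binds other pyrin domains, to a HIN domain, which binds DNA. In macrophages they are known as nuclear and cytosolic DNA-binding proteins that act in innate sensing and in transcription, beside the neighbouring inflammasome sensor Aim2. Ifi202b stands apart in the family because its protein has HIN domains without a pyrin domain, and its mRNA level is known to differ strongly between inbred mouse strains, with little of it in C57BL/6.

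The study measured mRNA in bone marrow-derived macrophages (BMDMs) from wild type mice (BMDM-WT) and from mice lacking the nuclear receptor Nur77, encoded by Nr4a1 (BMDM-Nur77-KO), to ask how loss of Nur77 alters the response to lipopolysaccharide (LPS), a bacterial cell wall component that activates macrophages. Each genotype was sampled untreated (0 h) and after 1, 5 and 18 h of 100 ng/ml LPS, with 4 libraries in each of the 8 groups and 32 in all. All donors were male mice of 6 to 12 weeks with the strain label C57Bl6/J, and the marrow was differentiated for 7 days in L929-conditioned medium. The knockout is whole-body: mice expressing Cre recombinase from a CMV promoter were crossed with mice carrying a loxP-flanked Nr4a1 locus, and knockout mice without Cre were then derived and compared with wild type littermates, although the genotype label of the knockout samples reads "cre". The number of mice behind the 4 replicates is not stated, so p-values measure the spread between these libraries, which may be technical.

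Library totals were 8742362 to 15780926 tags. Levels are given in CPM, counts scaled to library totals after TMM normalisation. Nr4a1 itself was measured at 19.2, 15.5, 25.5 and 18.1 CPM in the untreated wild type libraries, replicates 1 to 4 in order, and at 4.88, 4.57, 4.42 and 6.92 in the untreated knockout. At 1 h of LPS it reached 483, 483, 358 and 422 CPM in the wild type and 244, 178, 146 and 194 in the knockout, a log2 fold change of -1.20 (SE 0.15, adjusted p = 1.9e-06). Nr4a1 tags were therefore lower in the knockout without being absent, and since counts cover the whole transcript they do not show which part was transcribed. The 10 macrophage markers summed to 11460 to 19940 CPM in every library, and markers of neutrophils, T and NK cells, dendritic cells and fibroblasts to at most 37.39 CPM. Macrophage markers were lower in the knockout without overlap at 5 h, at 14630 to 17570 CPM against 17830 to 19660, and at 18 h, at 11460 to 13060 against 14450 to 14980. The 7 matched B cell markers were higher in the knockout without overlap at each time, at 188.7 to 209.8 CPM against 157.9 to 166.6 at 0 h, 214.9 to 229.5 against 175.5 to 182.8 at 1 h, 152.7 to 182.6 against 130.2 to 136.9 at 5 h, and 297.8 to 363.5 against 228.5 to 247.6 at 18 h. Also higher in the knockout without overlap were neutrophil markers at 1 h (30.54 to 37.39 against 21.45 to 28.06), dendritic cell markers at 18 h (21.15 to 25.74 against 8.551 to 9.963) and fibroblast markers at 0, 1 and 5 h (at most 4.154). These are sums over each list, which 1 abundant gene can carry, and levels of single markers are not given. They do not by themselves show a change in the cells present. Of all single genes tested, 8.98% to 11.1% lay wholly above the wild type at the times sampled, and 9.32% to 13.4% wholly below. The part of these markers in the results below was not tested.

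Libraries within 2 of the knockout groups were uneven. In replicate 1 at 5 h every one of the 10 family genes lay above its own group mean, by 0.53 to 1.06 on the log2(CPM + 1) scale, and in replicate 4 at 18 h each lay above by 0.12 to 0.81. Over all genes tested these libraries also had the largest root mean square deviations from their group means, 0.47 and 0.33, against 0.11 to 0.28 for the other libraries. For the 10 family genes, results at 5 and 18 h are therefore given with and without them where a call changed. For genes outside the family no values without them are given.

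The promoters of the family are shown next, because the members divide by whether they hold a match to an interferon-stimulated response element. RefSeq promoter windows on GRCm38.p6, from 250 bases before to 50 after the start, were given for 9 of the 10 genes. The core of that element, GAAA followed by any 2 bases and GAAA again, was searched on both strands and was found in 7 of the 9, namely Ifi203, Ifi205, Ifi207, Ifi208, Ifi211, Ifi213 and Mndal, compared with 3.44% of 32851 windows of the same length. Ifi202b held none, and neither did Ifi209. The stretches below are the 150 bases just before the start in 5′ to 3′ order of the gene, with the match in capitals. Ifi213 and Ifi208 are shown because both were lowest in the knockout relative to the wild type, Ifi205 and Ifi211 because their transcripts share the most sequence, and Ifi202b because it was the highest.
Ifi213 (chr1:173599273-173599422, minus strand): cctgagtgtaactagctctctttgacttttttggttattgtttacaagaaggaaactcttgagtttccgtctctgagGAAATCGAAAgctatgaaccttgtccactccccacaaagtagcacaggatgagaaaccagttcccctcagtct
Ifi208 (chr1:173673515-173673664, plus strand): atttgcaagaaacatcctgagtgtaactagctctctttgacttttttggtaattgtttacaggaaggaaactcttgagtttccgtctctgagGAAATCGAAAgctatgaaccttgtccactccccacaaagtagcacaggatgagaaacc
Ifi205 (chr1:174031756-174031905, minus strand): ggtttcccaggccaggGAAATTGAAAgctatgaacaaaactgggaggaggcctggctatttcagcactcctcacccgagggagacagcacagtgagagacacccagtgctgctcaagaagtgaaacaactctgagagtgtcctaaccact
Ifi211 (chr1:173913047-173913196, minus strand): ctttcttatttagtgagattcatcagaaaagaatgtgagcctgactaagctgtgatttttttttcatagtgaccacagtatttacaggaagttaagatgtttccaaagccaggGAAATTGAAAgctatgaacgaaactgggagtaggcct
Ifi202b (chr1:173982845-173982994, minus strand): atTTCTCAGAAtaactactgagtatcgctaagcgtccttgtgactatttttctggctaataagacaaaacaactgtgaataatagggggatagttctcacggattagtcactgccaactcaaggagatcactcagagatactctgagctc

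In Ifi202b the capitals mark TTCNNNGAA, the gamma-activated sequence, which no other member's window held and which 8.3% of all windows hold. The windows of Ifi213 and Ifi208 shared an unbroken run of 135 bases, those of Mndal and Ifi203 one of 139 and those of Ifi205 and Ifi211 one of 45. The response element lay 73 to 64 bases before the start of Ifi213 and 58 to 49 before that of Ifi208. The AP-1 motif TGANTCA was found in the windows of Ifi203, Ifi209 and Mndal (7.81% of all windows), the kB motif, GGGAA and TTCC with any single base between them, in that of Ifi209 (0.341%), and the Nur77 motif AAAGGTCA in none of the 9 (1.51%). AP-1 and response element matches did not overlap, and none of these matches was tested for binding. These are sequences of the reference genome, and no sequence of the knockout or wild type mice was read here.

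The family's transcripts resemble each other to differing extents, which bears on the counts below. Of the 150-base windows of the Ifi205 transcript, 36.1% occurred unchanged in Ifi211 transcripts, and 46.4% of those of Ifi211 occurred in another gene, 32.3% in Ifi205 and 14.1% in Ifi204. Ifi204 shared 10.8% of its windows with Ifi211, and Ifi209 shared 10.0% with Ifi214, a family gene outside the list. The share was at most 2.22% for Ifi203, Ifi208 and Mndal, and 0% for Ifi202b, Ifi207 and Ifi213. With windows of 50 bases it was 72.9% for Ifi211, 49.6% for Ifi205, 35.1% for Ifi209, 30.2% for Ifi204, 27.2% for Mndal, 25.9% for Ifi208, 23.9% for Ifi203, 7.18% for Ifi207, 5.00% for Ifi213 and 0% for Ifi202b. Tags from shared stretches cannot be assigned with certainty, and the authors' filter on mapping quality may have removed some of them. The values are uncertain to that extent, most so for Ifi211 and Ifi205 and least for Ifi202b. The libraries were strand-specific, but whether strand was used in counting is not stated.

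**Figure D1:**
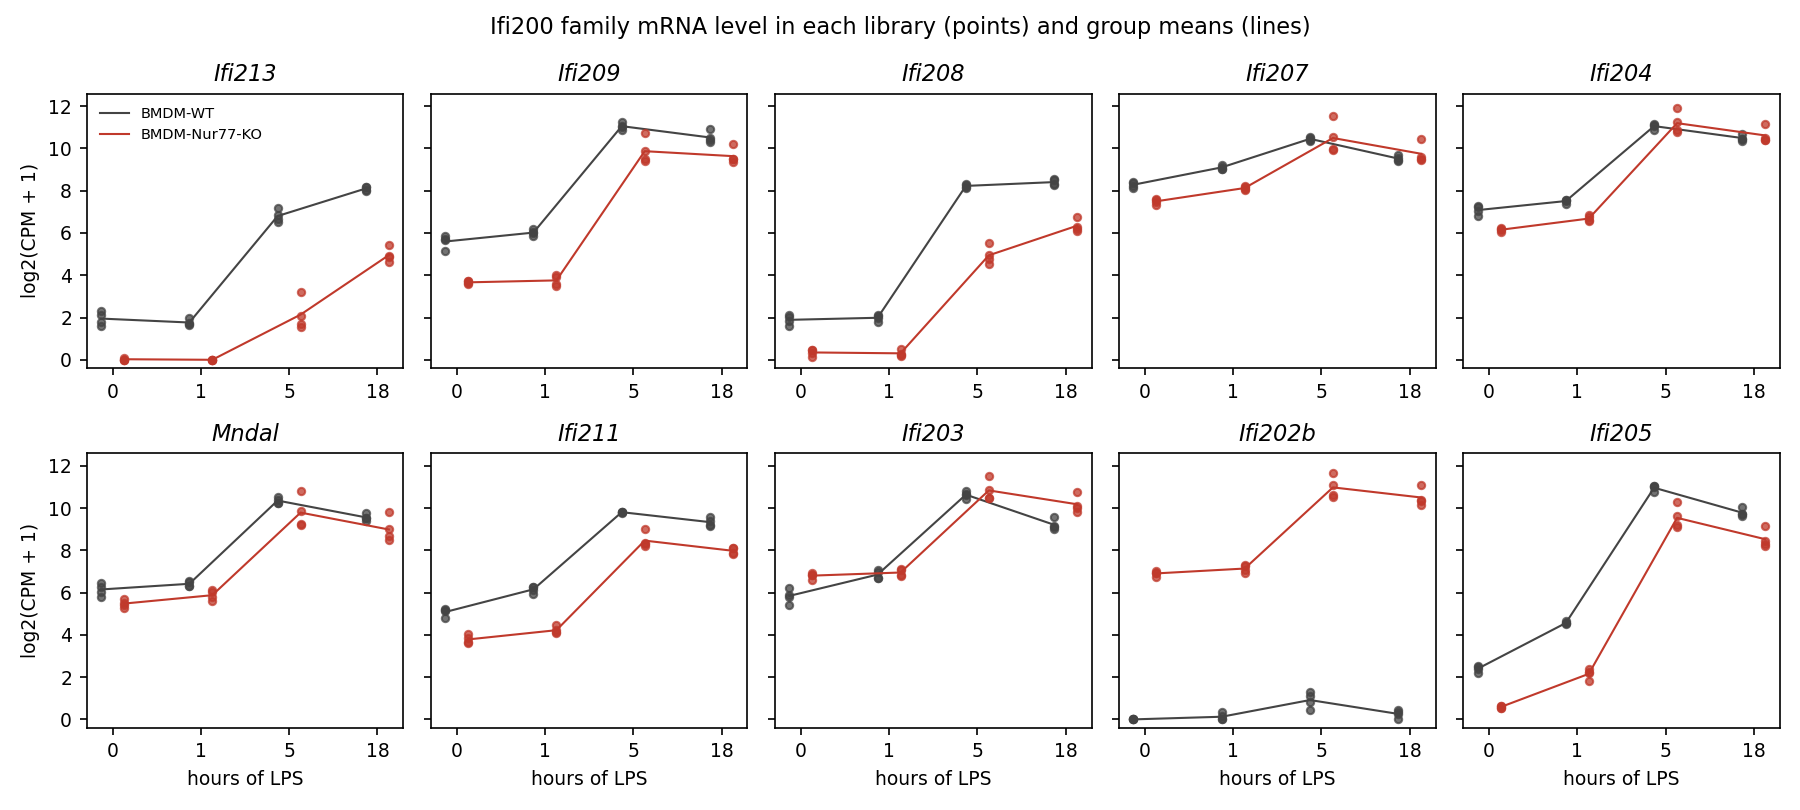
Level of each family gene, log2(CPM + 1) on the vertical axis, against hours of LPS (0, 1, 5 and 18, evenly spaced) in wild type (grey) and knockout (red) libraries, ordered along the chromosome, with points for libraries and lines joining the means of the 4 log2 values. Ifi202b runs near 0 in the wild type throughout, Ifi213 is at or near 0 in the knockout at 0 and 1 h, and most members rise between 1 and 5 h in both genotypes.

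Ifi202b showed the widest separation of the genotypes. In untreated cells the wild type libraries held 0 Ifi202b counts between them, whereas the knockout had 127, 122, 122 and 106 CPM, at least 2369-fold higher when the wild type is set to the floor of 3 counts over the group. After 1 h of LPS the knockout had 119, 133, 159 and 152 CPM, and the wild type had 0 to 4 counts per library. At 5 h the knockout rose to 3241, 2168, 1484 and 1577 CPM, and at 18 h it stood at 1347, 1132, 1303 and 2196. No wild type library at any time had more than 12 Ifi202b counts, and the groups did not overlap at any time. Of all genes tested, 9.45%, 10.2%, 8.98% and 11.1% lay wholly above the wild type at 0, 1, 5 and 18 h. The wild type groups held 5, 32 and 9 rounded Ifi202b counts in all at 1, 5 and 18 h. From these counts the ratio of knockout to wild type was 1492 at 1 h, 2250 at 5 h and 7431 at 18 h, with lower 95% limits of 639, 1593 and 3914 that cover counting error only. The second Ifi202b transcript record, NM_011940, had means of 2074 and 1472 CPM in the knockout at 5 and 18 h, against 0.872 and 0.204 in the wild type. In bulk RNA, fewer expressing cells and less RNA per cell cannot be told apart, for this gene and those below. Counts also depend on how well the tags align to the reference genome, which was not tested here.

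Ifi213 was the opposite case. It is also listed under the older name Pydc4, for pyrin domain-containing, and 6 transcript records carry its symbol. In the wild type it was low before LPS, at 4.01, 3.33, 2.40 and 2.02 CPM, and the 4 knockout libraries together held 1 count. At 1 h the wild type had 2.27, 2.1, 2.34 and 2.93 CPM and the knockout held 0.5 deposited counts in replicates 2 and 4, single mates that round to 0, and none in the other 2. At 5 h the wild type reached 113, 90.4, 102 and 144 CPM and the knockout 8.18, 3.26, 2.22 and 1.97. At 18 h the values were 293, 262, 256 and 290.3 CPM in the wild type and 23.7, 27.7, 28.8 and 42.6 in the knockout, 11.2% of the wild type mean. The genotypes did not overlap at any time. Of all genes tested, 13.4%, 9.32%, 9.74% and 9.98% lay wholly below the wild type at 0, 1, 5 and 18 h. Within the knockout the 18 h libraries of Ifi213 lay above all earlier ones. The log2 difference, knockout over wild type, was -4.86 (SE 0.27, adjusted p = 3.7e-13) at 5 h and -3.17 (SE 0.22, adjusted p = 1.6e-11) at 18 h by the quasi-likelihood test of edgeR, with p-values adjusted after Benjamini and Hochberg across the 11186 genes that passed the filter. The 1 h fitted value of -7.85 (SE 1.06, adjusted p = 9.6e-06) depends on the prior count, since the knockout group rounded to 0.

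**Figure D2:**
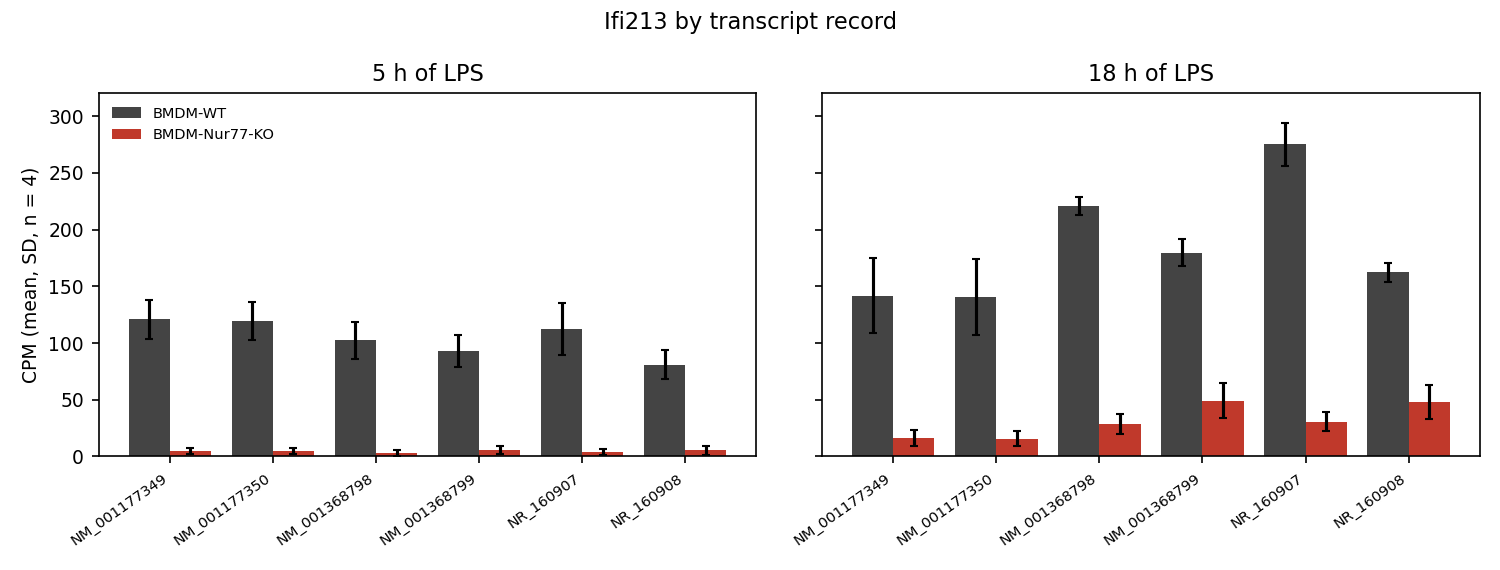
Mean level in CPM with SD (n = 4) of the 6 Ifi213 transcript records at 5 and 18 h of LPS in wild type (grey) and knockout (red) macrophages, where records overlap and share tags. Each record is lower in the knockout at both times, with the record NR_160907 used here at 275 CPM in the wild type and 30.7 in the knockout at 18 h.

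The size of the Ifi213 difference varied between transcript records. At 18 h the knockout mean was 11.2% of the wild type for NR_160907, the record used here, 11.4% for NM_001177349 and 13.0% for NM_001368798, compared with 27.5% for NM_001368799 and 29.7% for NR_160908. At 5 h the 6 records lay between 3.12% and 6.59%. In all 6 records and at all 4 times the knockout libraries lay below the wild type libraries.

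Ifi208, listed also as Pydc3, whose promoter window resembles that of Ifi213, was likewise low in the knockout. Untreated wild type cells had 2.57, 3.07, 3.30 and 2.02 CPM and knockout cells 0.0905, 0.250, 0.381 and 0.393. After 1 h they were 2.48, 3.30, 3.00 and 3.14 CPM against 0.430, 0.149, 0.159 and 0.226, the latter from 12 counts in the whole group. The genotypes did not overlap after LPS had raised the gene either. At 5 h the wild type had 306, 282, 293 and 316 CPM and the knockout 45.2, 30.1, 21.9 and 26.2, and at 18 h 319, 373, 357 and 309 against 77.7, 72.8, 68.2 and 107. Ifi208 differed by a log2 value of -3.60 (SE 0.39, adjusted p = 1.2e-07) at 1 h, -3.27 (SE 0.16, adjusted p = 2e-15) at 5 h and -2.07 (SE 0.15, adjusted p = 1e-11) at 18 h.

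Ifi205, Ifi209 and Ifi211 formed a middle set, lower in the knockout at all of 1, 5 and 18 h and with no overlap between the genotypes at any time. Of all genes tested, 9.32%, 9.74% and 9.98% lay wholly below the wild type at 1, 5 and 18 h. For Ifi205 the untreated values were 3.63, 4.53, 4.73 and 4.19 CPM in the wild type and 0.543, 0.438, 0.457 and 0.550 in the knockout. At 1 h they were 22.0, 22.3, 22.3 and 23.9 against 3.70, 2.54, 4.14 and 3.61. At 5 h Ifi205 stood at 2032, 1751, 2082 and 2126 CPM in the wild type, the member with the highest level per length there, and at 1233, 779, 541 and 581 in the knockout. On the log2 scale the gap was narrower at the later times, and at 18 h the values were 842, 854, 1053 and 778 against 315, 293, 343 and 572. The fitted difference for Ifi205 was -2.69 (SE 0.24, adjusted p = 2.3e-09) at 1 h, -1.34 (SE 0.19, adjusted p = 5.7e-06) at 5 h and -1.22 (SE 0.19, adjusted p = 8e-06) at 18 h.

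Ifi209 had 49.4, 50.9, 57.5 and 34.8 CPM in the untreated wild type and 11.3, 11.0, 12.2 and 12.3 in the untreated knockout. In the same order of genotypes, the values after 1 h of LPS were 62.3, 64.0, 57.0 and 73.0 against 11.0, 10.3, 15.3 and 14.1, at 5 h 2142, 1892, 2074 and 2431 against 1674, 949, 674 and 715, and at 18 h 1359, 1424, 1910.3 and 1251 against 724, 659.7, 715 and 1166. Here the uneven knockout libraries are visible, as replicate 1 at 5 h came closest to the wild type range and replicate 4 at 18 h likewise. For Ifi209 the log2 difference was -2.33 (SE 0.23, adjusted p = 2.3e-08) at 1 h, -1.08 (SE 0.21, adjusted p = 0.00044) at 5 h and -0.87 (SE 0.21, adjusted p = 0.0023) at 18 h. Fitted on the 8 libraries of 5 h alone, the 5 h difference was -1.10 with an adjusted p of 0.051.

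Ifi211 had 35.3, 34.0, 36.3 and 26.6 CPM in the untreated wild type and 15.6, 11.1, 11.6 and 13.2 in the untreated knockout. The wild type libraries at 5 h were nearly equal, at 894, 902, 882 and 895 CPM, against 509, 314, 328 and 289.8 in the knockout. At 1 h the ranges were 60.9 to 77.1 CPM in the wild type and 16.0 to 20.8 in the knockout, and at 18 h 572 to 763 and 227 to 274. At no time did a knockout library reach the wild type range of Ifi211, and the log2 difference was -1.99 (SE 0.15, adjusted p = 4e-11) at 1 h, -1.31 (SE 0.14, adjusted p = 3.7e-08) at 5 h and -1.37 (SE 0.14, adjusted p = 5e-09) at 18 h.

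Ifi204 and Ifi207 were called lower at 1 h and not called at 5 or 18 h. Ifi204, which is often compared with human IFI16 as a DNA sensor, had 149, 129, 154 and 109.9 CPM in the untreated wild type and 73.3, 65.4, 71.3 and 70.5 in the untreated knockout. At 1 h the values were 182, 190.1, 167 and 188 against 92.7, 95.8, 113 and 107, again without overlap. From 5 h on the groups overlapped, at 2209, 1874, 2148 and 2317 CPM against 3907, 2409, 1738 and 1854 at 5 h and 1399, 1394, 1666 and 1317 against 1462, 1332, 1361 and 2278 at 18 h. Ifi204 differed by -0.83 (SE 0.18, adjusted p = 0.0026) on the log2 scale at 1 h, then 0.22 (SE 0.17, adjusted p = 0.35) at 5 h and 0.15 (SE 0.17, adjusted p = 0.6) at 18 h.

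Ifi207 was the member with the highest level per length in the resting wild type. It had 337, 333, 299.9 and 277 CPM there and 196, 178, 188 and 161 in the resting knockout. With 1 h of LPS it had 519.9, 554, 526 and 601 CPM in the wild type and 267, 264, 289.7 and 295 in the knockout. At 5 h the wild type had 1363, 1319, 1489 and 1447 CPM and the knockout 2945, 1481, 1014 and 977, with replicates 1 and 2 above the other 2 and above or within the wild type range. At 18 h the knockout had 726, 689, 767 and 1416 CPM, overlapping the wild type range of 678 to 836. The Ifi207 difference, on the log2 scale, was -0.98 (SE 0.23, adjusted p = 0.0051) at 1 h, 0.20 (SE 0.22, adjusted p = 0.52) at 5 h and 0.28 (SE 0.22, adjusted p = 0.41) at 18 h.

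Ifi203 and Mndal, whose promoter windows share a run of 139 bases, lay on different sides of the wild type at rest. Ifi203 was higher in the resting knockout, at 122, 113, 114 and 94.6 CPM against 59.0, 74.3, 55.1 and 41.7 in the wild type. The groups overlapped at 1 h, with ranges of 110.0 to 137 and 101 to 133, and at 5 h, with 2961, 1878, 1414 and 1406 against 1626, 1377, 1577 and 1798. At 18 h the knockout was again higher in every library, at 1038, 907, 1095 and 1739.9 CPM against 547, 571, 751 and 516. Its log2 difference was 0.10 (SE 0.20, adjusted p = 0.88) at 1 h, 0.27 (SE 0.20, adjusted p = 0.31) at 5 h and 0.99 (SE 0.20, adjusted p = 0.00036) at 18 h.

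Mndal, the myeloid nuclear differentiation antigen-like gene, had 77.0, 87.8, 65.1 and 54.0 CPM in the untreated wild type and 42.0, 50.4, 44.9 and 38.0 in the untreated knockout. At 1 h the knockout libraries, at 46.8, 53.6, 64.1 and 69.2 CPM, lay below the wild type range of 77.2 to 91.4, and the log2 difference of -0.53 (SE 0.26, adjusted p = 0.3) was not called. At 5 h the knockout was spread over 1809, 939.8, 598 and 591 CPM around a wild type range of 1197 to 1491. At 18 h it was spread over 402, 354, 518 and 884, against 677 to 883. The difference was -0.41 (SE 0.25, adjusted p = 0.23) at 5 h and -0.50 (SE 0.25, adjusted p = 0.17) at 18 h, so Mndal was called at no time. Without replicate 1 of the knockout at 5 h it was -0.89 with an adjusted p of 0.0041, and without replicate 4 at 18 h it was -0.84 with an adjusted p of 0.014, so this verdict rests on those libraries.

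**Figure D3:**
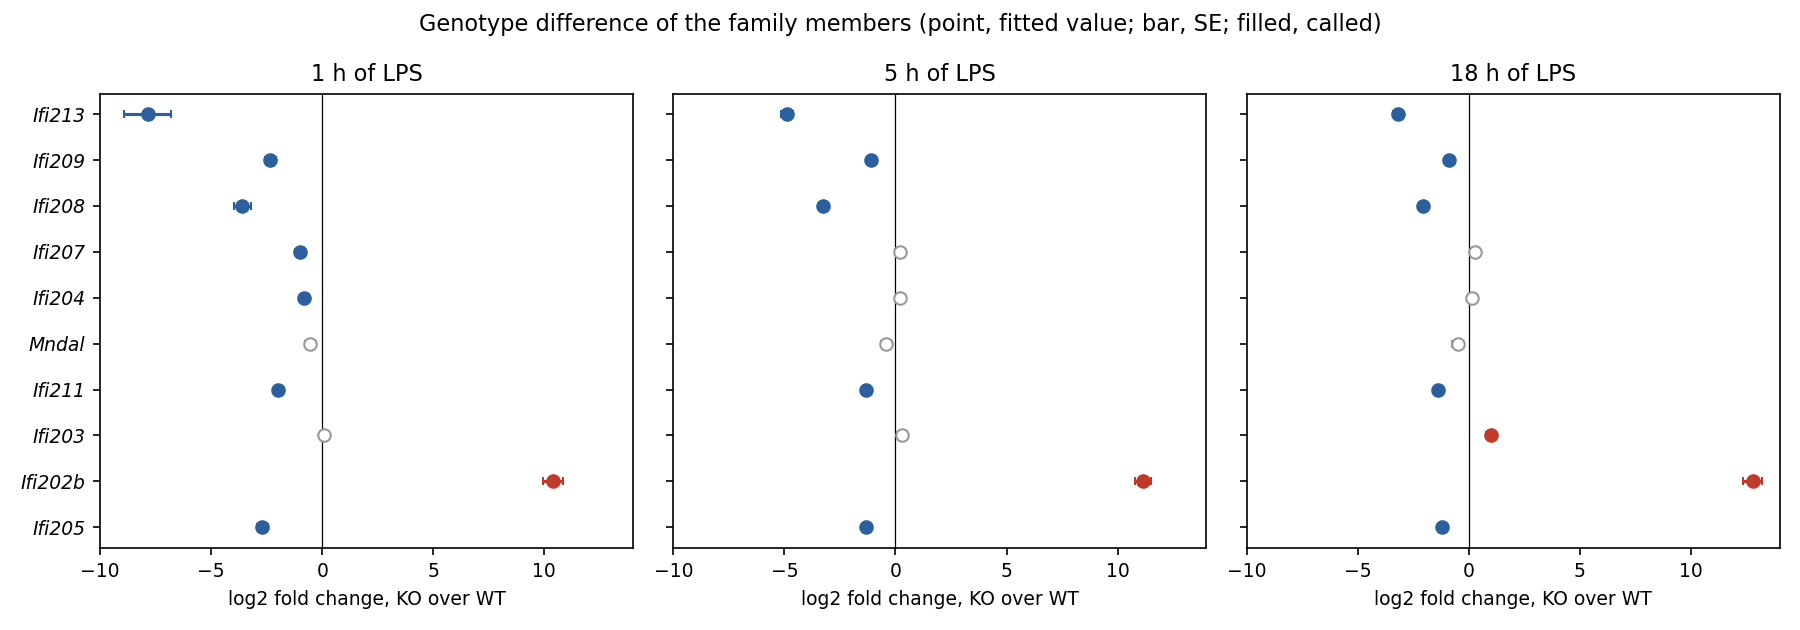
Log2 fold change of each family gene, knockout over wild type, at 1, 5 and 18 h of LPS, with bars for the SE of the fit (often narrower than the point), and red, blue and open points for genes called higher, lower and not called. Ifi202b stands at 10.39 to 12.77, fitted values that rest on few wild type counts and are a description only, Ifi213 and Ifi208 are the lowest at each time, and most of the negative values lie nearer 0 at 18 h than at 1 h.

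Across the family, the genotype difference at 1 h of LPS was called for 1 gene higher and 7 lower in the knockout, where 1.48% and 1.36% of all genes tested were called in those directions. At 5 h it was called for 1 higher and 5 lower, against a background of 5.66% and 3.13%. At 18 h it was called for 2 higher and 5 lower, against 5.76% and 4.17%. The gene called higher at 1 h and at 5 h was Ifi202b, which passed the filter through the knockout alone and so had to differ, and nothing is read from its call. The other gene called higher at 18 h was Ifi203. Called here means an adjusted p below 0.05 together with a log2 difference beyond 0.58 in size. The median log2 difference of the 10 members was -1.48 at 1 h, -0.74 at 5 h and -0.69 at 18 h, compared with 0.00, 0.02 and -0.01 over all genes tested. The members were picked for genotype differences at 0 h, and a difference that lasts is called again later. Their counts and medians are therefore not free of that choice, and the background genes were not so chosen. At rest, described only, 2 members lay wholly above and 8 wholly below the wild type, where 9.45% and 13.4% of all genes tested did so and where 2.36% and 2.38% were called higher and lower by the same limits.

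Whether the genotype difference itself changed over the LPS course was tested as an interaction among the 1, 5 and 18 h groups, none of which chose the members. The members were chosen for differences at 0 h, shortly before the 1 h groups. Shifts of the genotype difference from 1 h are therefore not free of that choice, and the background genes were not so chosen. Between 1 and 18 h the difference moved up, towards the knockout, for 7 members (6.17% of all genes tested moved up and 4.72% down): Ifi203, Ifi204, Ifi205, Ifi207, Ifi208, Ifi209 and Ifi211. The largest of these shifts were 1.53 (SE 0.47, adjusted p = 0.032) for Ifi208, 1.47 (SE 0.30, adjusted p = 0.0012) for Ifi205 and 1.46 (SE 0.31, adjusted p = 0.0016) for Ifi209 on the log2 scale. Ifi204 and Ifi207 shifted by 0.98 and 1.26, and no member was called as moving down. Ifi213 had the largest fitted shift, 4.67 (SE 1.57, adjusted p = 0.054), where the knockout at 1 h rounded to 0 counts, and was not called. The shift count was 4 without replicate 4 of the knockout at 18 h, 4 without replicate 2 of the knockout at 1 h and 4 without replicate 2 of the wild type at 1 h, and Ifi204, Ifi205, Ifi207 and Ifi209 kept their call in each of these.

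Between 1 and 5 h the shift was called for 5 members, Ifi204, Ifi205, Ifi207, Ifi209 and Ifi211 (background 2.36% up and 1.76% down), with 1.35 (SE 0.30, adjusted p = 0.0095) for Ifi205 as the largest. This count fell to 3 without replicate 1 of the knockout at 5 h and to 0 without replicates 1 and 2 together, an alternative chosen after seeing the data in which edgeR's test still gave 6 members an unadjusted p under 0.05. It was also 3 after leaving out replicate 1 or 2 of the knockout at 1 h, replicate 2 or 4 of the wild type at 1 h, or replicate 1 or 2 of the wild type at 5 h. Between 5 and 18 h the shift was called for Ifi208, 1.20 (SE 0.21, adjusted p = 0.00015), and Ifi213, 1.69 (SE 0.34, adjusted p = 0.00088) (background 7.49% up and 6.14% down), and the count rose to 3 without replicate 1 of the knockout at 5 h, where Ifi203 shifted by 1.02 (adjusted p = 0.0027), and to 6 without replicates 1 and 2 of the knockout at 5 h.

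LPS raised the family in both genotypes. At 5 h all 10 members were called higher than at 0 h in the wild type and all 10 in the knockout, where 15.9% and 16.2% of all genes tested rose and 17.8% and 16.4% fell. At 18 h it was again 10 and 10, where 13.3% and 15.7% of all genes rose and 14.1% and 16.3% fell. The limit on the log2 change for these comparisons was 1, with the same limit on the adjusted p. The untreated libraries in these comparisons are those in which the members were chosen by genotype, and each time point is compared with them, so these changes are not independent of that choice. Ifi208 passed the filter only through the 5 and 18 h groups and so had to be higher there. The median change at 5 h was 5.00 on the log2 scale in the wild type and 4.96 in the knockout, compared with -0.14 and -0.12 over all genes tested.

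At 5 h Ifi205 had the widest response, 8.84 (SE 0.27, adjusted p = 5.3e-23) in the wild type and 10.59 (SE 0.32, adjusted p = 5.7e-23) in the knockout. That knockout value rests on 6 to 7 Ifi205 counts per untreated library. Ifi207 had the narrowest response, 2.15 (SE 0.23, adjusted p = 1.4e-09) and 3.13 (SE 0.24, adjusted p = 8.1e-13), from the highest resting level of the wild type. Ifi208 and Ifi213 were higher at 18 h than at 5 h in both genotypes on the mean, with overlapping wild type ranges for Ifi208, whereas the means of the other 8 were lower at 18 h than at 5 h. Ifi202b in the knockout rose by 4.13 (SE 0.24, adjusted p = 7e-15) at 5 h. In the wild type its fitted rise of 6.49 (SE 1.36, adjusted p = 0.00013) rests on 3 to 12 counts per library against 0. At 18 h the wild type rise of Ifi202b had an adjusted p of 0.04 from 0 to 4 counts per library, and this call was lost on leaving out any single one of 7 wild type libraries.

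At 1 h of LPS few members had moved. In the wild type Ifi205 rose by 2.39 (SE 0.23, adjusted p = 9.1e-10) and Ifi211 by 1.09 (SE 0.14, adjusted p = 4.3e-07), 2 members where 3.44% of all genes rose and 1.66% fell. In the knockout Ifi205 alone was called, at 2.79 (SE 0.40, adjusted p = 3.3e-06), where 3.25% of all genes rose and 1.27% fell. Ifi203 in the wild type had a log2 change of 0.99 (SE 0.20, adjusted p = 0.00048), just under the limit of 1, against 0.14 (SE 0.20, adjusted p = 0.84) in the knockout. Ifi211 fell under the limit, at 0.99, without replicate 4 of the untreated wild type.

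**Figure D4:**
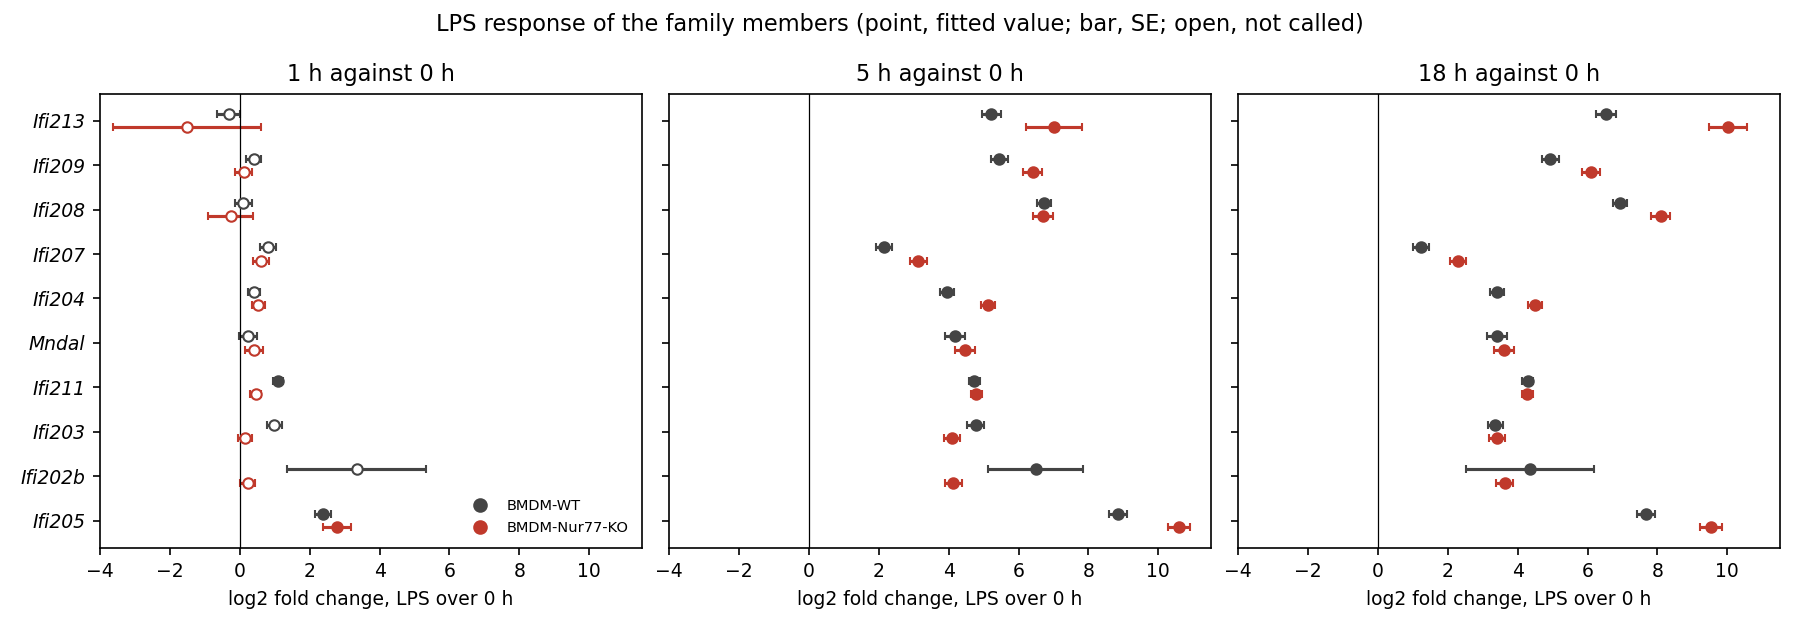
Log2 fold change of each family gene after 1, 5 and 18 h of LPS against 0 h, in wild type (grey) and knockout (red) macrophages, with bars for the SE of the fit and open points for changes not called. At 5 and 18 h each of the 20 points is filled, the lowest being Ifi207 in the wild type at 2.15 and 1.23, and the Ifi202b values of the wild type carry wide bars because they rest on few counts.

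The order of the members by level per length, in RPKM, also differed between the genotypes. In the resting wild type Ifi207 led with 91.1 RPKM, followed by Ifi204 with 59.1 and Mndal with 35, and these neighbours did not overlap. Ifi203 and Ifi211, next at 18.8 and 18.5, overlapped. In the resting knockout Ifi202b led with 70.3 RPKM, then Ifi207 with 52.8 and Ifi203 with 36.4. At 5 h Ifi205 led in the wild type with 1239 RPKM ahead of Ifi204 with 931, without overlap. In the knockout at 5 h Ifi202b had 1248 RPKM and Ifi204 1079, with overlapping ranges, and Ifi213 was last with 1.46. The length of Ifi213 was taken from another of its transcripts.

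Other genes of the pathways in which the family is placed were taken from lists that include no member. Of 20 interferon-stimulated genes all 20 rose at 5 and 18 h in both genotypes, where 13.3% to 16.2% of all genes tested rose. Against the wild type, the knockout had 0 of the 20 higher and 1 lower at 1 h, 1 higher and 2 lower at 5 h, and 6 higher and 1 lower at 18 h, with a median log2 difference of 0.05, -0.01 and 0.49. Of all genes tested, 1.48%, 5.66% and 5.76% were called higher and 1.36%, 3.13% and 4.17% lower at 1, 5 and 18 h. Called lower at all 3 times was Ddx58, the RNA sensor RIG-I, at -1.91 (SE 0.10, adjusted p = 3.2e-14) at 1 h, -1.55 at 5 h and -0.98 at 18 h. Cxcl10, a chemokine gene, was higher at 18 h by 1.01 (SE 0.08, adjusted p = 7.7e-11).

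Of 18 genes of interferon production and signalling, 0 were called at 1 or 5 h in either direction and 4 higher and 1 lower at 18 h, led by Ifnb1, which encodes interferon beta, at 1.33 (SE 0.18, adjusted p = 4.4e-06). Of 19 tested genes of cytosolic DNA sensing, 1 was lower at 1 h, Prkdc, at -0.69 (adjusted p = 0.0095), and 1 at 5 h, Tlr9, at -0.96 (adjusted p = 2.2e-05), and none was higher at any of the 3 times or called at 18 h. Of 12 inflammasome genes, 0 were called at 1 h, 1 was higher at 5 h and 4 were higher and 1 lower at 18 h, including Il1b at 1.30 (SE 0.14, adjusted p = 1.1e-08) and Il18 at 0.98. The shares of all genes tested given for the interferon-stimulated genes apply to these lists too, and nothing is read from single calls.

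Aim2 and Ifi214, the other family genes at the locus with tags in the table, were not called lower in the knockout at 1, 5 or 18 h. Aim2, which is also in the inflammasome list, had 253, 238, 263 and 281 CPM in the wild type and 783, 406, 259.8 and 291 in the knockout at 5 h, a difference of 0.76 (SE 0.21, adjusted p = 0.012), and 0.85 (SE 0.22, adjusted p = 0.0043) at 18 h. Ifi214 had 15.4, 15.6, 17.5 and 18.0 CPM in the wild type and 96.8, 59.1, 43.9 and 44.1 in the knockout at 5 h, a difference of 1.88 (SE 0.19, adjusted p = 2.7e-08). At 18 h the Ifi214 difference was 1.87 (SE 0.19, adjusted p = 4.7e-09). Ifi214 shares sequence with Ifi209, which moved the other way.

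The genotype difference was not limited to the family along this stretch of the chromosome. Of 73 other genes tested within 5 Mb of the cluster, 24.7% were called in either direction at 1 h, 34.2% at 5 h and 31.5% at 18 h. On the rest of chromosome 1 the shares were 3.93%, 9.06% and 9.57% of 585 genes, on chromosomes other than those of the family and of Nr4a1 they were 2.55%, 8.5% and 9.67%, and within 5 Mb of Nr4a1 itself they were 5.56%, 13.3% and 13.3% of 90 genes. The called neighbours lay mostly on 1 side: of 59 genes in the 5 Mb before the cluster 30.5%, 42.4% and 37.3% were called, and of 14 genes in the 5 Mb after it 0%, 0% and 7.14%. A further 5 to 10 Mb before it the shares were 10.3%, 10.3% and 13.8% of 29 genes.

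Most of the called neighbours were lower in the knockout: 15 were lower and 3 higher at 1 h, then 20 lower and 5 higher at 5 h, and 15 lower and 8 higher at 18 h. Largest was Sh2d1b1, an adaptor of SLAM family receptors, at -6.32 at 18 h, from means of 0.067 CPM (knockout) and 5.70 (wild type). Next were Nos1ap at -3.79 at 5 h from means of 0.0209 and 0.464 CPM, and Gm7694 at -3.48 at 1 h. Cd244a, a SLAM family receptor gene, was at -3.44 at 18 h from 0.576 and 6.29 CPM. Knockout means of Sh2d1b1, Nos1ap and Cd244a never exceeded 0.693 CPM, so they likely passed the filter through the wild type alone. For that reason their differences are given without a test, though the counts above include them. Igsf9 at -2.49, Fcgr2b, the inhibitory Fc gamma receptor, at -2.08 (SE 0.11, adjusted p = 2.5e-14) and Alyref2 at -1.92 followed at 18 h. In the other direction Kcnj10, a potassium channel gene, was at 2.99 at 5 h from means of 1.67 CPM (knockout) and 0.207 (wild type). Slamf1 was at 2.20 at 18 h and Ifi214 at 1.88 at 5 h. Kcnj10 was not called at 18 h. Its wild type means never exceeded 1.163 CPM, so it may have passed the filter through the knockout alone. Whether the knockout mice carry sequence of another strain at this stretch cannot be read from counts, and its part in these differences was not tested.

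**Figure D5:**
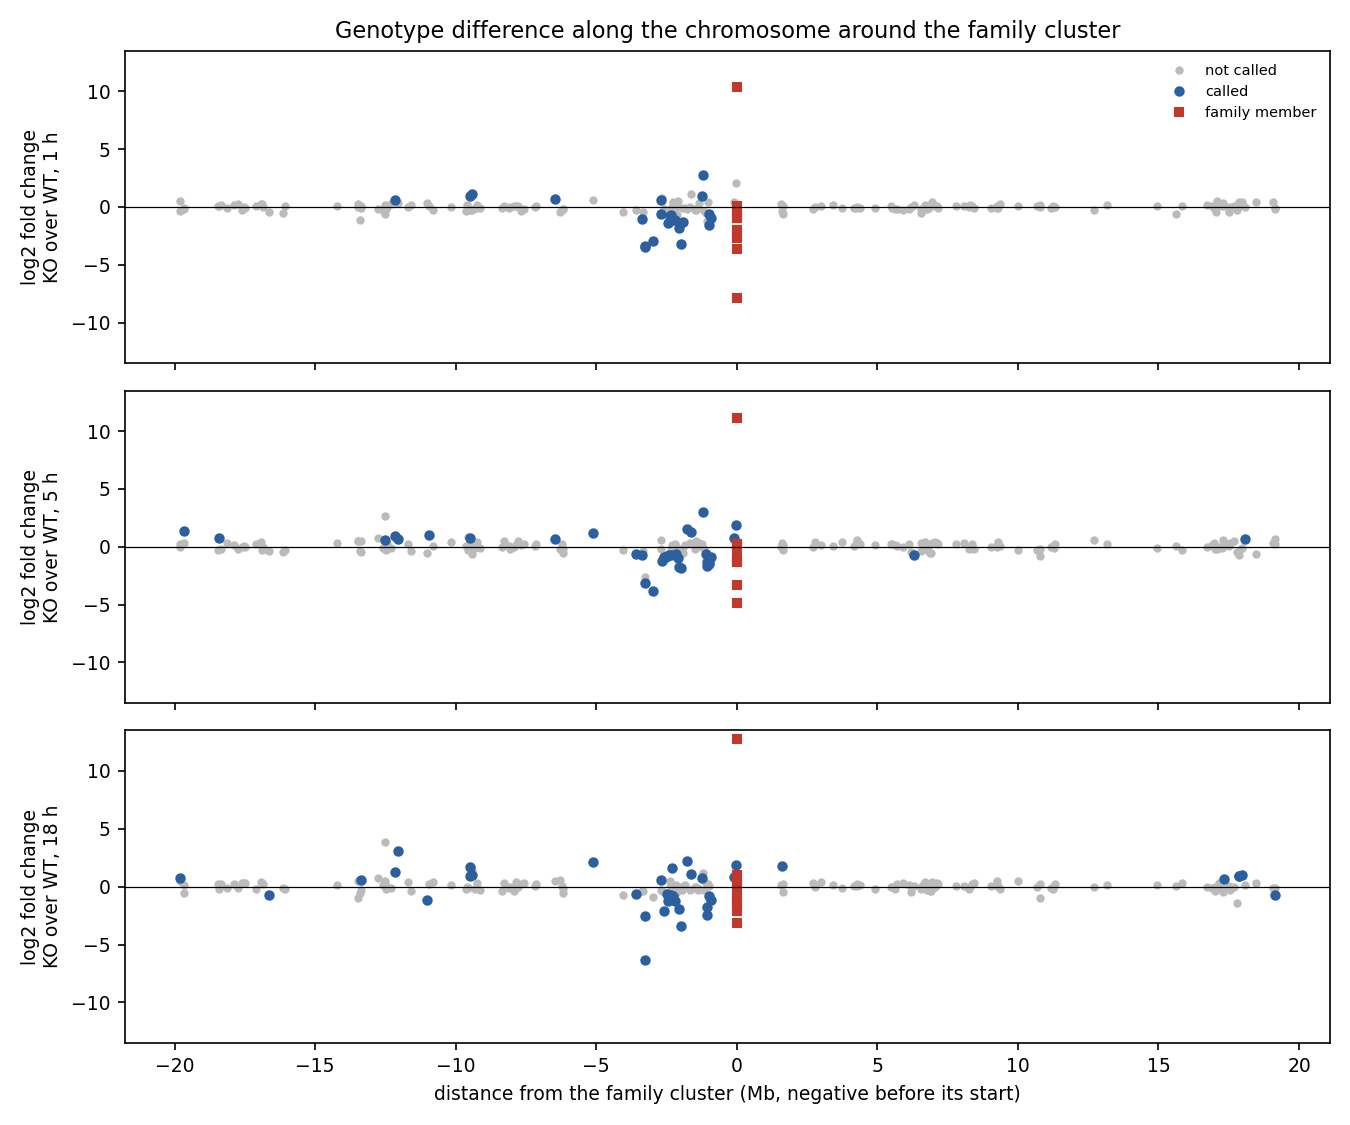
Log2 fold change, knockout over wild type, of each gene tested within 20 Mb of the family cluster at 1, 5 and 18 h of LPS (top to bottom), against its distance from the cluster in Mb, with red squares for family members, blue points for other called genes and grey points for genes not called. Called genes gather in the 5 Mb before the cluster, where 30.5% were called at 1 h, while 0 of 14 were called in the 5 Mb after it.

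The genes outside the family whose levels followed the members most closely over the 32 libraries were found by Pearson's r of log2(CPM + 1), a description in which libraries of a group share their group level. For Ifi202b they were Depp1 (0.905), Cttn (0.853) and Mettl7a3 (0.849), and the member closest to it was Ifi203 at 0.382. For Ifi213 they were Slamf8 (0.96), Glrx (0.953) and Fcer1g (0.951), and for Ifi208 Fcgr4 (0.986), Ddx58 (0.984) and Slamf8 (0.981). Slamf8, Fcer1g and Fcgr4 are neighbours of the cluster, and each was called lower in the knockout at 5 h. At 1 and 18 h Slamf8 and Fcer1g were called lower too, whereas Fcgr4 was not called. Outside the family Ifi205 was closest to Slamf7 (0.987), another neighbour, and Ifi209 and Ifi211 to Ddx58 (0.992 and 0.985). Ifi205 and Ifi211, which share the most sequence, were closer to each other (0.989), and Mndal was closer to Ifi204 (0.985) than to any gene outside the family. For Ifi203 the closest genes outside the family were Gca, Jak2 and Snx10 (0.991 to 0.992), for Ifi204 Slfn8, Slc7a2 and Iigp1 (0.992 to 0.993), for Mndal Gvin1, Gm4070 and Slfn8 (0.98 to 0.982) and for Ifi207 Msr1 (0.971), Med21 (0.961) and Filip1l (0.95). With group means removed, the closest outside genes were others: Cep95 (0.903) for Ifi213, Epsti1 (0.891) for Ifi208 and B2m (0.927) for Ifi205. None of these is among the neighbours tested.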

How the data were processed

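RNA was measured by paired-end sequencing (CASAVA 1.8.2 is named in the submitters' processing notes) of strand-specific mRNA libraries from 32 macrophage samples in 8 groups of 4. The deposited values are expected counts made by the authors, who aligned reads to mm10 with HISAT2 2.1.0, filtered on mapping quality and counted tags per RefSeq transcript with HOMER without normalisation. Mates add 0.5 each, 28.6% of values were not whole, and all were rounded here, with ties to the even number. Of 42361 transcripts 93 had no gene name and held 0.233% to 1.37% of tags. Each gene is represented by its transcript of highest mean count, and 11186 genes with a mean RPKM over 1 in a group were tested in edgeR 4.0.16 (TMM, quasi-likelihood, all 32 libraries, group means, Benjamini-Hochberg adjustment; R 4.3.3). Genotypes were compared at each time, each time with 0 h, and the genotype difference between times. On simulated counts of the 1 h genotype comparison the test recovered the changes made. That simulation gave every gene the same spread and left out genes of low count. It does not bear on members near 0 or on the uneven libraries. Intervals and floors of 3 counts cover counting error only. The members, gene lists and rules for named genes (all members, called list genes, the 10 neighbours with the largest called difference and the 3 most correlated genes) were chosen with earlier results of these data known. Alternatives were other scalings, filters, limits and transcript handling, DESeq2 1.42.0, a replicate block and leaving out libraries.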

Additional observations from a re-analysis of the deposited data

Results flagged for a closer look

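In 80 groups of 4 values, 5 had a highest library set apart from the others beyond Dixon's 95% limit for the gap as a share of the group's range, which chance exceeds in about 1 group in 20. In replicate 4 of the knockout at 18 h this held for Ifi204 (a gap of 0.863 of the range), Ifi207 (0.892) and Ifi209 (0.873), and in that library every member lay above its group mean. In replicate 4 of the wild type at 1 h it held for Ifi205 (0.835), where the library had 23.9 CPM and the others 22.0 to 22.3. For Ifi213 in the untreated knockout the gap was 1, from 1 count in replicate 3 and 0 in the others.

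The genotype difference itself differed between times for several members, by the interaction test. From 1 to 5 h it moved by 1.0508 on the log2 scale for Ifi204, 1.3487 for Ifi205, 1.1782 for Ifi207, 1.2506 for Ifi209 and 0.6826 for Ifi211. From 1 to 18 h it moved by 0.8944 for Ifi203, 0.9763 for Ifi204, 1.4712 for Ifi205, 1.2582 for Ifi207, 1.5272 for Ifi208, 1.46 for Ifi209 and 0.6161 for Ifi211. From 5 to 18 h it moved by 1.2034 for Ifi208 and 1.6921 for Ifi213. The 1 h libraries are shared by the first 2 sets of values.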

How the results depend on the processing

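No called value reversed its direction under the alternatives run. The counts of called members in the genotype comparisons, and in the LPS comparisons at 5 and 18 h, stayed within 1.5 times of those reported. With no limit on the log2 change, LPS at 1 h was called for 4 members in the wild type and 2 in the knockout, and with a limit of 2 for 1 member in the wild type. The shift of the genotype difference from 1 to 5 h, called for 5 members, was called for 2 in a fit of the compared libraries alone and for 0 without replicates 1 and 2 of the knockout at 5 h, where the shift from 5 to 18 h was called for 6. With single libraries left out, the counts ranged from 3 to 5 for the shift from 1 to 5 h, from 4 to 7 for that from 1 to 18 h and from 1 to 3 for the wild type at 1 h of LPS.

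Libraries with the same replicate number did not deviate together: in 0 of 28 pairs of groups did all 4 same-number correlations exceed 0.1, with a mean r of -0.024 for the same number and 0.011 for other numbers. With a replicate block the shift from 1 to 5 h was called for 3 members, with an adjusted p of 0.052 for Ifi207 and 0.059 for Ifi211. Depth limits Ifi202b in the wild type, and Ifi208 and Ifi213 in the knockout before 5 h, to a few counts per library. Ifi205 in the untreated knockout is limited to 6 to 7.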
